A study of Mus musculus with 28 samples.

Results

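The potassium channel genes of the mouse are those whose symbol begins with Kcn. All array probe sets carrying a single gene symbol with that start were taken, with 1 probe set per gene (the one of highest mean over the 28 arrays), which gave 92 of the 19938 genes measured. Of the 92, 88 encode a channel subunit or an accessory subunit, and the other 4 do not: Kcnrg, a regulator, and Kcnd3os, Kcnmb4os1 and Kcnmb4os2, antisense transcripts. The study measured total RNA from mouse cells of strain 129SvEv on Affymetrix whole-transcript arrays, and asked how gene expression depends on topoisomerase IIβ (Top2β), the DNA topoisomerase II isoform that predominates in postmitotic neurons, as embryonic stem (ES) cells become neurons. Values are log2 expression values, so a difference of 1 is a doubling, and a gene's level is never compared here with another gene's level.

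Potassium channels let potassium ions leave or enter the cell and set its resting potential and the shape, timing and repetition of action potentials. The voltage-gated families are Kv1 (Kcna), Kv2 (Kcnb), Kv3 (Kcnc), Kv4 (Kcnd), the EAG, ERG and ELK channels (Kcnh) and Kv7 (Kcnq), and the Kcnf, Kcng, Kcns and Kcnv subunits are silent alone and modify Kv2 channels. Inward rectifiers (Kcnj) and tandem-pore leak channels (Kcnk) hold the resting potential, calcium-activated BK (Kcnm), SK and IK (Kcnn) channels and sodium-activated channels (Kcnt) follow activity, Kcnu1 is a sperm channel related to BK, and Kcnab, Kcne and Kcnip encode accessory subunits, Kcnip proteins being partners of Kv4. In maturing neurons Kv4 and BK channels are known for fast repolarisation, Kv7 for the M-current that restrains repetitive firing, and Kir2 channels such as Kcnj2 for the inward rectification near rest.

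The 12 groups formed 6 pairs. Wild-type cells and Top2β knockout cells were compared as ES cells (2 and 2 arrays), as neuronal progenitors (NP, 2 and 2 arrays), on TN day 2 (2 and 2 arrays) and on TN day 6 (3 and 3 arrays), where TN is the labels' own term for the neuron stage. On TN day 5, cells given DMSO (2 arrays) were compared with cells given ICRF-193 (2 arrays), a catalytic inhibitor of topoisomerase II that acts on both isoforms; the labels give 50 µM, renewed every 24 h, starting on TN day 2 and ending on TN day 5. Cortical glutamatergic neurons from E16.5 embryos were also given DMSO (3 arrays) or ICRF-193 (3 arrays). The same treatment text stands on all samples, so dose and timing for the cortical neurons are not stated separately. Whether the knockout cells are 1 clone, and whether replicates are separate cultures or pooled animals, is not stated in the labels. The p-values therefore measure only the spread between arrays, which was pooled over the 12 groups and may be technical.

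As a check of the labels, the Top2b probe set read 7.52 and 7.96 in wild-type ES cells against 5.79 and 7.11 in the ES arrays labelled knockout, and at the later 3 stages the knockout arrays were lower without overlap (for example 8.68 to 9.04 against 11.1 to 11.3 on TN day 6). The files do not tell whether the probe set covers deleted sequence. The 2 ES knockout arrays agreed less with each other over all genes (Pearson r = 0.967) than arrays within any other group (0.99 to 0.997). Array medians ran from 6.12 to 6.43, and no arrays were identical. The mean of the ES cell markers was 9.954 to 11.06 on the ES arrays and at most 6.688 elsewhere. Neurod6 and Tbr1, markers of cortical glutamatergic neurons, averaged 10.55 and 10.14 in the cortical neurons given DMSO, but Gad1 and Gad2, markers of GABAergic neurons, were also at 10.39 and 9.341 there. In bulk RNA, fewer cells of a type and less RNA per cell cannot be told apart.

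Promoter sequence is shown for 4 members on which the results turn: Kcnd2 and Kcnd3, the Kv4 paralogs that changed in opposite directions in the TN day 6 knockout, and Kcnj2 and Kcnq5, which fell most under ICRF-193 in cortical neurons. Each window holds the 250 bases before the annotated start, 5′ to 3′ in the direction of the gene, from RefSeq on GRCm38.p6, with capitals marking the GC box GGGCGG, searched on both strands. The windows are chr6:21215096-21215345 (plus strand) for Kcnd2, chr3:105451640-105451889 (plus strand) for Kcnd3, chr11:111065914-111066163 (plus strand) for Kcnj2 and chr1:21962651-21962900 (minus strand) for Kcnq5.
Kcnd2: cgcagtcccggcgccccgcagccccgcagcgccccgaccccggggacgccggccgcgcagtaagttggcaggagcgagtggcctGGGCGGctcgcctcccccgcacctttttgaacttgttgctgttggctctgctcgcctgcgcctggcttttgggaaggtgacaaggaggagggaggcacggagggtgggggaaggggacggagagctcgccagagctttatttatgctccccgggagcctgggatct
Kcnd3: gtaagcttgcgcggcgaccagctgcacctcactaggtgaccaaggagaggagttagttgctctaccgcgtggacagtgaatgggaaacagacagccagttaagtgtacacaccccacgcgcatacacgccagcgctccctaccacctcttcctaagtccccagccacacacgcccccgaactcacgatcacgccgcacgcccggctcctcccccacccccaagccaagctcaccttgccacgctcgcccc
Kcnj2: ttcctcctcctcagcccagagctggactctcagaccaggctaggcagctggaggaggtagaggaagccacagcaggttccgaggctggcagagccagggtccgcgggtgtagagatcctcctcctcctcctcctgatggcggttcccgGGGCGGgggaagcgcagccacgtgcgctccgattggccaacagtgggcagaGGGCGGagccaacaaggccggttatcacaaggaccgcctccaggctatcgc
Kcnq5: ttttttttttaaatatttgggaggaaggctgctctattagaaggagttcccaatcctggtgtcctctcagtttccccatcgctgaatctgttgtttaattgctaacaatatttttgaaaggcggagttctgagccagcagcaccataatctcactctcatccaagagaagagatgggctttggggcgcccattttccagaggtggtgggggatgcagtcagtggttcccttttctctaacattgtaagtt
The Kcnj2 window held 2 GC boxes and the Kcnd2 window 1, with none in the other two. GC content was 68.8% for Kcnd2, 62.8% for Kcnd3, 65.6% for Kcnj2 and 44.4% for Kcnq5, and the windows held 22, 18, 14 and 3 CpG dinucleotides respectively. Kcnq5 has a second window in the table, at chr1:21961943-21962192, which held no GC box, 14 CpG dinucleotides and 60.8% GC; the other 3 genes have 1 window each. Over the 70 members matched in the promoter table, 44.2% of 95 windows held a GC box, against 32.7% of 32851 windows of all genes. The TATA box TATAAA stood in 3.16% of the member windows and in 12.4% of all windows. The letters TCAGCACC, the left part of the RE1 element bound by the repressor REST, were in 0 member windows and in 1.32% of all windows, and the right part GGACAGCG was in 1.05% and 0.992%. A match describes the letters of these windows only.

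The members differed widely in how much they varied over the 12 groups. The range of a gene's group means was under 1 for 34 members, from 1 to 2 for 25 and at least 2 for 33, with a median of 1.31. The 4 members with a range of at least 4 were Kcnk9 (5.25) and Kcnk10 (4.06), leak channels of neurons, Kcnd2 (4.38), the Kv4.2 subunit of the A-type current, and Kcnk5 (4.36), a leak channel also found in epithelia. Kcnk5 ran opposite to the others: its group mean was 9.41 ± 0.0404 (SD, n = 2) in wild-type ES cells, 8.19 ± 0.11 (SD, n = 2) at NP, 6.52 ± 0.495 (SD, n = 2) on TN day 2 and 5.40 ± 0.211 (SD, n = 3) on TN day 6. Kcnk9 went from 4.49 ± 0.0247 (SD, n = 2) in wild-type ES cells to 9.07 ± 0.183 (SD, n = 3) on TN day 6, and its highest mean was 9.74 ± 0.768 (SD, n = 2) on TN day 5 with DMSO. These last means of Kcnk9, on TN day 6 in wild type and on TN day 5 with DMSO, lay within their spread of each other. So did those of Kcnd2, at 9.75 ± 0.0984 (SD, n = 3) and 9.76 ± 0.37 (SD, n = 2).

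The group with the highest mean was cortical neurons with DMSO for 24 members and TN day 5 with ICRF-193 for another 24, cortical neurons with ICRF-193 for 11, and an ES group for 12 (6 wild type, 6 knockout). The lowest mean lay in wild-type ES cells for 31 members. These counts were not made over all genes, so they are not a trait of the members. The TN day 5 arrays with ICRF-193 also had the highest medians, 6.43 and 6.41, against 6.12 to 6.15 in cortical neurons with DMSO. Only 7 members were called higher with ICRF-193 than with DMSO on TN day 5. The members most like each of the 4 widest-ranging genes were chosen by Pearson correlation of the 12 group means, as a description over groups that share the array platform and its normalization. Kcnc1 (0.977) and Kcnh5 (0.916) were nearest to Kcnk9, and Kcnma1 (0.949) and Kcnk10 (0.92) to Kcnd2. Kcnk6 (0.908) and Kcnd1 (0.765) were nearest to Kcnk5, and Kcnb2 (0.974) and Kcnh7 (0.965) to Kcnk10.

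**Figure D1:**
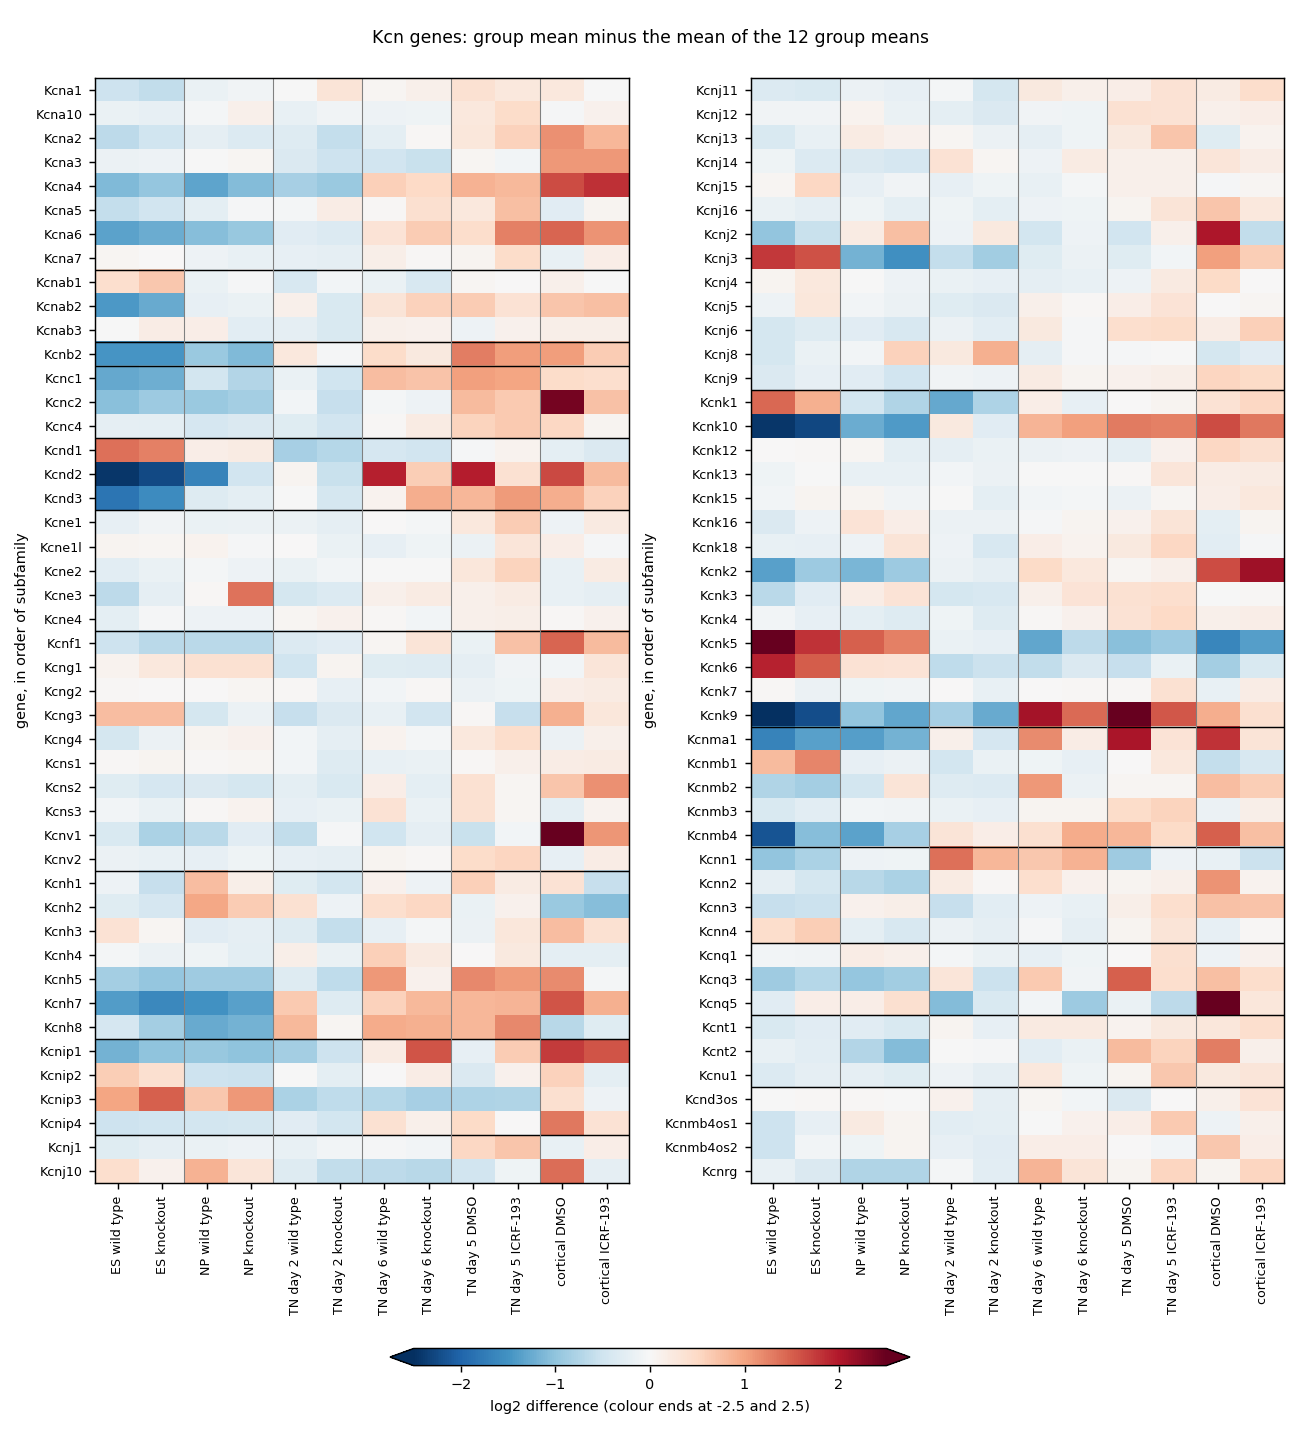
Each row is one of the 92 Kcn genes in order of subfamily and each column one of the 12 groups; colour is the group mean minus the mean of the gene's 12 group means (log2), with colours ending at -2.5 and 2.5. Kcnk5 and Kcnk6 are high in ES cells, Kcnk9, Kcnd2 and Kcnma1 are high in the wild-type and DMSO late neurons, and Kcnj2, Kcnq5, Kcnv1 and Kcnc2 stand out in cortical neurons with DMSO. Kcnk9 and Kcnd2 are also above their mean in the TN day 6 knockout and with ICRF-193.

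The wild-type arrays show how these genes vary as the cells differentiate. From ES cells to NP, 33 members changed (20 higher, 13 lower; limma, adjusted p under 0.05), a smaller share than the 46.3% called among all genes. Kcnj3, the Kir3.1 subunit of G-protein-gated channels, read 8.72 and 8.46 in ES cells and 5.54 and 5.78 in NP. Its fall of 2.93 ± 0.20 on the log2 scale (SE; adjusted p = 1e-10) was the largest among members in this step, and the arrays did not overlap. The leak channels Kcnk1, Kcnk6 and Kcnk5 fell by 1.90, 1.55 and 1.22, and Kcnd1 (Kv4.1) fell by 1.21. Rises were led by Kcnk9 (1.52 ± 0.27), Kcnd3 (1.49 ± 0.11), Kcnh2, the ERG1 channel (1.28 ± 0.12), and Kcnab2, a Kv1 accessory subunit (1.22 ± 0.13).

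From NP to TN day 2, 39 members changed (22 higher, 17 lower), beside 48.2% of all genes. Kcnh7, the ERG3 channel of neurons, read 4.68 and 4.61 in NP and 6.4 and 7.24 on TN day 2. It rose by 2.17 ± 0.18 (SE; adjusted p = 1.2e-09) and Kcnh8, an ELK channel, by 2.06 ± 0.15 (adjusted p = 1.2e-10), both without overlap between arrays. Kcnd2, Kcnmb4 (a BK accessory subunit of brain), Kcnma1 (the BK pore), Kcnn1 (SK1) and Kcnq3 (Kv7.3) also rose, by 1.74, 1.68, 1.51, 1.5 and 1.26. Kcnk5 fell by 1.67, Kcnip3 by 1.46, Kcnq5 (Kv7.5) by 1.26 and Kcnj10 (Kir4.1, the glial inward rectifier) by 1.19. Quantile normalization shifted the median of all genes by 0.106 in this step, and gave 27 higher and 13 lower.

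From TN day 2 to TN day 6, 29 members rose and 3 fell, beside 16.7% and 11.9% of all genes. Kcnk9, the TASK3 leak channel, read 6.25 and 6.08 on TN day 2 and 8.87, 9.23 and 9.10 on TN day 6. That rise of 2.90 ± 0.24 was 7.47-fold (adjusted p = 1.3e-08). Kcnd2 rose by a further 1.89 ± 0.15 (adjusted p = 4.8e-09), and Kcnk1, Kcna4 (Kv1.4), Kcnh5 (EAG2), Kcnmb2 (a BK accessory subunit), Kcnip1 and Kcnma1 rose by 1.06 to 1.45. The falls were Kcnk5 (fell by 1.12), Kcnn1 (fell by 0.70) and Kcnj8 (fell by 0.47). By subfamily, 5 of 14 Kcnk genes, 3 of 8 Kcna genes and 2 of 3 Kcnd genes rose in this step. Without the second wild-type array of TN day 2, 21 members were called. Cycling cell markers averaged 8.884 to 9.124 on TN day 2 and 6.121 to 6.404 on TN day 6 (5 of 5 lower), progenitor markers 8.713 to 9.357 and 7.809 to 7.96 (6 of 8 lower) and mesenchymal markers 7.44 to 9.306 and 6.733 to 6.831 (5 of 7 lower); their part in the result was not tested. These steps share arrays with each other and with the knockout comparisons, so each is given by its own values.

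Cortical neurons differed from the TN day 5 neurons under DMSO in 52 members, beside 44.8% of all genes (36 higher and 16 lower in cortical neurons, beside 24.4% and 20.4%). Kcnv1, a silent Kv2 modifier, read 8.60, 8.86 and 8.82 in cortical neurons and 5.18 and 5.22 on TN day 5, which is 11.8-fold higher (3.56 ± 0.22; adjusted p = 3.4e-11). Kcnq5 was higher by 2.71 and Kcnj2 by 2.50, and Kcnip1, Kcnj10, Kcnf1, Kcnc2 (Kv3.2) and Kcnk2 (TREK1) by 1.58 to 1.96. All 4 Kcnip genes were higher in cortical neurons, with a median of 1.06. Kcnk9 (1.83 lower, SE 0.24), Kcnh8, Kcnh2 and Kcnq3 were lower there. Centring each array on its median shifted all genes by 0.217 in this comparison and gave 44 higher and 9 lower. Markers of other cell types also differed: astrocyte markers averaged 7.329 to 7.597 in cortical neurons and 6.046 to 6.158 on TN day 5 (5 of 6 higher), oligodendrocyte lineage markers 7.413 to 7.577 and 6.032 to 6.043 (4 of 6 higher) and microglia markers 6.642 to 6.745 and 5.614 to 5.816 (5 of 6 higher). GABAergic neuron markers were at 9.013 to 9.086 and 7.395 to 7.51 (5 of 5 higher) and mesenchymal markers at 5.769 to 5.899 and 7.809 to 8.707 (6 of 7 lower). Their part in the result was not tested. The groups also differ in source, so cell origin and culture cannot be told apart.

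In ES cells, loss of Top2β was accompanied by a call for 1 of 92 members, beside 0.351% of all genes in either direction and 0.0853% higher, and 16 members had an unadjusted p under 0.05. Kcnmb4 read 7.22 and 5.80 in the knockout arrays and 5.42 and 5.38 in wild type, a rise of 1.11 ± 0.24 (SE; limma, adjusted p = 0.047). The excess lay mostly in 1 knockout array. The call was lost under quantile normalization, median centring and array weights, and 23 members were called without ES knockout replicate 2, so the call did not hold across settings.

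In NP, 4 members changed (3 higher, 1 lower), beside 0.627% of all genes (0.381% higher, 0.246% lower). Kcne3, an accessory subunit of Kv7 and Kv3 channels, read 5.86 and 6.09 in knockout and 4.54 and 4.74 in wild type. It was 2.52-fold higher (1.33 ± 0.15; adjusted p = 9.2e-05), and the arrays did not overlap. Kcnd2 read 7.31 and 7.32 in knockout and 5.98 and 6.27 in wild type, 2.28-fold higher (1.19 ± 0.16; adjusted p = 0.00054), again without overlap. Kcnmb2 was higher by 0.77 ± 0.16 (adjusted p = 0.018) and Kcnh1 (EAG1) lower by 0.63 ± 0.14 (adjusted p = 0.045). Kcnd2 was called in every setting tried, and Kcne3 in all but the filter on dim genes (mean of at least 6), where it was not tested. Median centring kept the 3 rises and lost the fall of Kcnh1, but the rise of Kcnmb2 did not hold in every setting either.

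On TN day 2, 14 members changed in the knockout, beside 11.5% of all genes: 10 were lower and 4 higher, beside 5.97% and 5.49%. Kcnh7 read 5.94 and 5.75 in knockout and 6.4 and 7.24 in wild type (fell by 0.98 ± 0.18; adjusted p = 0.001), without overlap. Kcnq3 fell by 0.84 ± 0.18 (adjusted p = 0.0042), Kcnh8 by 0.76 ± 0.15 (adjusted p = 0.0017), Kcnd2 by 0.61 ± 0.16 (adjusted p = 0.016) and Kcnd3 by 0.43 ± 0.11 (adjusted p = 0.013). The other falls, of Kcnn1, Kcnma1, Kcnh2, Kcnk10 and Kcnab2, were between 0.49 and 0.54. Kcnq5 was higher by 0.71 ± 0.20 (6.45 and 6.84 against 6.05 and 5.80; adjusted p = 0.021), and Kcnj8, Kcng1 and Kcnk1 were higher by 0.64, 0.57 and 0.51. By subfamily, 3 of 7 Kcnh and 2 of 3 Kcnd genes were lower, and the median over the 92 members was -0.11 against -0.04 over all genes.

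The TN day 2 calls depended on the setting. No member was called when only the 4 arrays compared entered the fit, 1 was called without knockout replicate 2 and 4 without wild-type replicate 1. Markers of cell types also differed. The mean of the pan-neuronal markers was 10.96 to 11.02 in wild type and 10.32 to 10.58 in knockout (7 of 10 lower). Mesenchymal markers were at 7.44 to 9.306 in wild type and 9.607 to 10.02 in knockout (3 of 7 higher). Of the 6 glutamatergic neuron markers 3 were lower and 0 higher. Of the 5 cycling cell markers 2 were higher and 0 lower, and of the 8 progenitor markers 2 were higher and 2 lower. Their part in the result was not tested.

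On TN day 6 the knockout neurons had lower Kcnd2, Kcnma1, Kcnmb2, Kcnq3 and Kcnq5 and higher Kcnip1 and Kcnd3. In all, 11 of 92 members changed, beside 10.2% of all genes: 9 were lower and 2 higher, beside 4.8% and 5.38%. Kcnd2 read 8.26, 8.55 and 8.45 in knockout and 9.64, 9.79 and 9.83 in wild type. It was 2.52-fold lower (fell by 1.33 ± 0.13 on the log2 scale; adjusted p = 3.5e-07), with every knockout array below every wild-type array. Its paralog Kcnd3 (Kv4.3) went the other way: 7.99, 7.91 and 8.01 in knockout against 7.11, 7.18 and 7.15 in wild type, 1.76-fold higher (0.82 ± 0.09; adjusted p = 1.5e-06). Kcnip1, whose protein binds Kv4 subunits, read 7.18, 6.98 and 6.98 against 5.63, 5.70 and 5.74 and was 2.56-fold higher (1.36 ± 0.12; adjusted p = 5.1e-08). The antisense transcript Kcnd3os, at a log2 difference of -0.12, was not called.

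Of the 5 Kcnm genes of the BK channel, 2 were lower on TN day 6 and none was called higher. Kcnmb2 read 5.98, 6.08 and 5.83 in knockout and 7.20, 7.20 and 7.19 in wild type (fell by 1.24 ± 0.13; adjusted p = 6.2e-07). Kcnma1 read 7.35, 7.28 and 7.48 against 8.29, 8.36 and 8.47 (fell by 1.0 ± 0.14; adjusted p = 2.4e-05). Neither gene's groups overlapped. Kcnmb4 read 8.48, 8.49 and 8.50 in knockout and 8.06, 7.88 and 7.97 in wild type, also without overlap, but at 0.52 ± 0.20 its difference missed the threshold (adjusted p = 0.115). Among the Kv7 genes, Kcnq5 fell by 0.84 ± 0.16 (adjusted p = 0.0011) and Kcnq3 by 0.74 ± 0.15 (adjusted p = 0.0018), and the EAG2 gene Kcnh5 fell by 0.97 ± 0.16 (adjusted p = 0.00022). Smaller falls, of 0.41 to 0.53, were called for Kcnrg, Kcns3 and Kcns2. None of the 15 Kcnj, 14 Kcnk, 8 Kcna or 5 Kcne genes was called. Of the 11 calls, 8 held in every setting tried; Kcnip1 held in every setting but the filter on dim genes (mean of at least 6), where it was not tested, and Kcnrg and Kcns2 did not hold. Cycling cell markers averaged 6.121 to 6.404 in wild type and 7.258 to 7.823 in knockout (5 of 5 higher) and progenitor markers 7.809 to 7.96 and 8.752 to 9.154 (5 of 8 higher). Of the 6 glutamatergic neuron markers 2 were lower and 0 higher, and of the 10 pan-neuronal markers 1 was lower and 1 higher. Of the 6 oligodendrocyte lineage markers measured, 2 were higher and 0 lower. The part of these markers in the result was not tested.

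Kcnma1 has a second probe set, of mean 3.968 against 7.308 for the one used, and the pair disagreed. The dimmer one differed by 0.173 in the TN day 6 knockout, by 0.399 under ICRF-193 on TN day 5 and by 0.124 in cortical neurons, always higher. Averaging the pair made the falls of Kcnma1 smaller: 0.41 on TN day 6, 0.66 on TN day 5 and 0.68 in cortical neurons, all still called (adjusted p = 0.00191, 2.27e-04 and 3.51e-06), and the TN day 2 call was lost (adjusted p = 0.115). Kcna2 and Kcnh8 also have 2 probe sets; those of Kcnh8 agreed on TN day 2, at -0.757 for the one used and -0.799 for the other, but not with ICRF-193, where the one used differed by 0.394 in cortical neurons and 0.367 on TN day 5 and the other by 0.0971 and 0.0871. With their mean the cortical rise of Kcnh8 was lost (0.25; adjusted p = 0.0792).

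**Figure D2:**
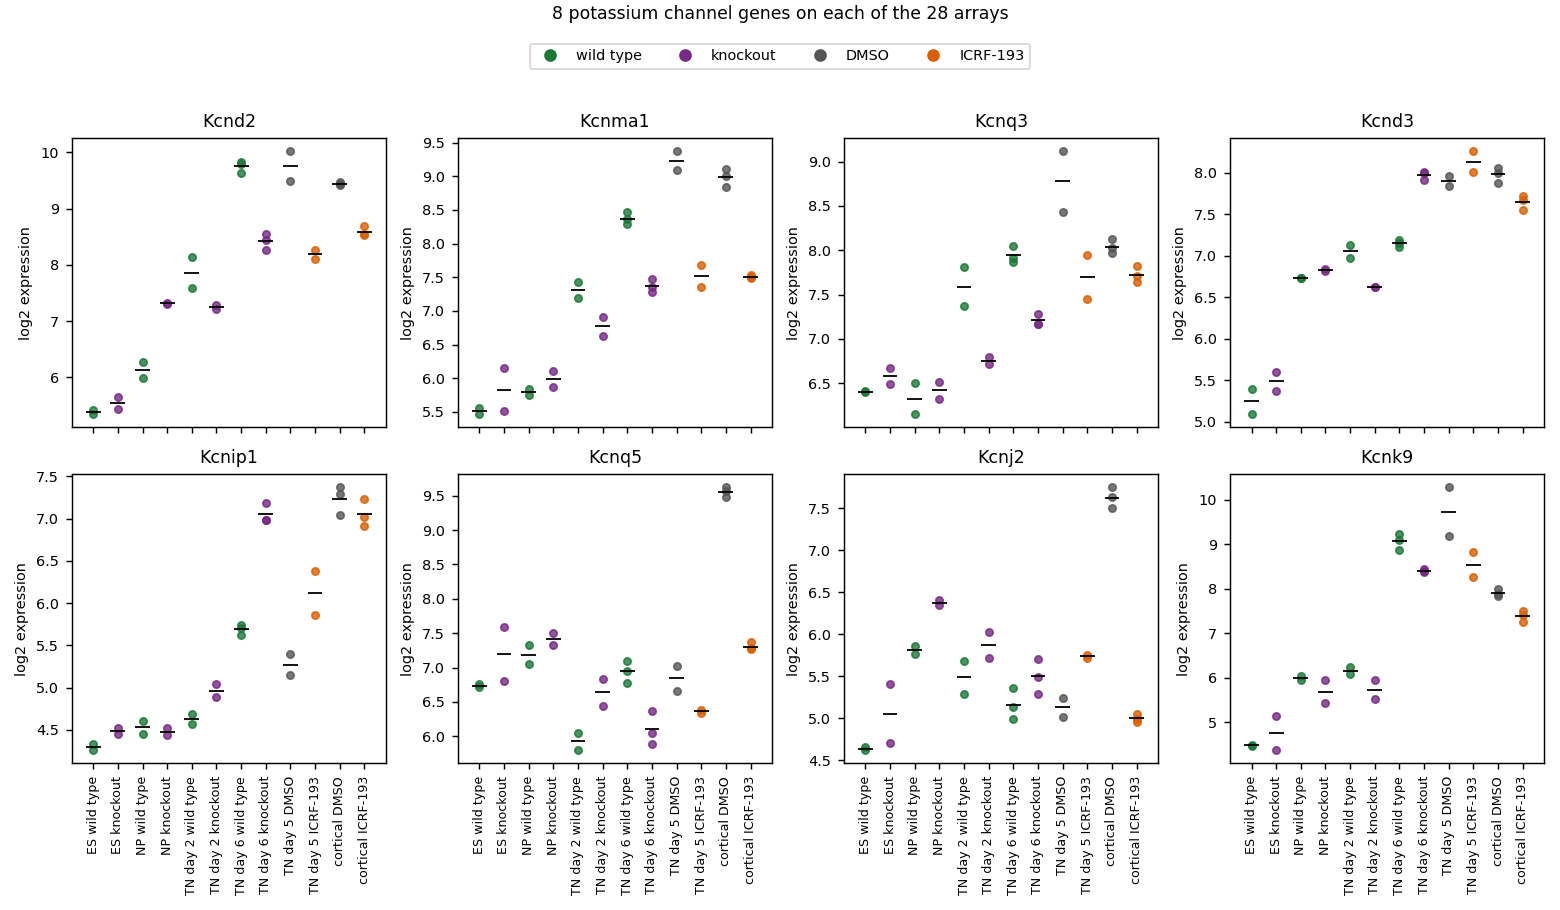
Log2 expression on each of the 28 arrays for 8 members, one panel per gene, with groups along the x axis, points as arrays and bars as group means; colours mark wild type, knockout, DMSO and ICRF-193. Kcnd2 is lower in knockout than wild type on TN day 6 but higher in knockout at NP, Kcnd3 and Kcnip1 are higher in the TN day 6 knockout, and Kcnj2 drops from 7.50 or more to 5.05 or less in cortical neurons with ICRF-193.

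The knockout effect changed with the stage for several members, tested as the difference between effects. Between NP and TN day 2, 5 members differed, beside 2.71% of all genes (1 toward higher and 4 toward lower, beside 1.38% and 1.33%). The effect on Kcnd2 went from higher in NP to lower on TN day 2, a change of -1.80 ± 0.23 (SE; adjusted p = 2.18e-04), and that on Kcne3 changed by -1.23 ± 0.22 (adjusted p = 0.0039). Kcnd2 was called in every setting tried and Kcne3 in all but the filter on dim genes. Between TN day 2 and TN day 6, 12 members differed, beside 4.8% of all genes (8 toward higher and 4 toward lower, beside 2.71% and 2.09%). The Kcnd3 effect turned from lower to higher (change of 1.25 ± 0.14; adjusted p = 1.54e-05), and the Kcnq5 effect from higher to lower (-1.56 ± 0.26; adjusted p = 8.25e-04). Kcnmb2 (-1.21 ± 0.20; adjusted p = 9.29e-04) and Kcnip1 (1.02 ± 0.19; adjusted p = 0.00219) were called in the knockout on TN day 6 and not on TN day 2, and the difference itself passed. For Kcnd2 the difference between TN day 2 and TN day 6 missed the threshold (adjusted p = 0.0506), as it did for Kcnma1 (adjusted p = 0.265) and Kcnq3 (adjusted p = 0.89).

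On TN day 5, ICRF-193 was accompanied by lower Kcnma1, Kcnd2, Kcnk9 and Kcnq3, and 7 other members were higher. These 11 of 92 stand beside 8.89% of all genes (6.37% lower, 2.51% higher). Kcnma1 read 7.36 and 7.68 with ICRF-193 and 9.09 and 9.37 with DMSO. It was 3.27-fold lower (fell by 1.71 ± 0.17; adjusted p = 2.8e-07), with no overlap. Kcnd2 read 8.10 and 8.27 against 9.50 and 10.02, 2.98-fold lower (fell by 1.57 ± 0.16; adjusted p = 6.5e-07). Kcnk9 fell by 1.19 ± 0.27 (8.27 and 8.82 against 9.19 and 10.28; adjusted p = 0.0068) and Kcnq3 by 1.08 ± 0.18 (adjusted p = 0.00049), the DMSO arrays of both being far apart but above the ICRF-193 arrays.

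The higher members on TN day 5 came from several families. Kcnf1, a Kv2 modifier, read 7.11 and 7.09 with ICRF-193 and 6.07 and 6.30 with DMSO (0.91 ± 0.15 higher; adjusted p = 0.00026). Kcnip1 was higher by 0.85 ± 0.14 (adjusted p = 0.0005), Kcna6 (Kv1.6) by 0.82 ± 0.15 (adjusted p = 0.001) and Kcnn1 by 0.76 ± 0.11 (adjusted p = 8.5e-05). Kcnj2 (0.61 ± 0.18; adjusted p = 0.04), Kcnu1 (0.60) and Kcna5 (0.48) followed. The split of 7 higher and 4 lower became 5 and 6 with median centring, and the higher calls of Kcnj2 and Kcna5 did not hold under both scalings. Only Kcnd2, Kcnma1 and Kcnf1 were called in every setting; 3 members were called with only the 4 arrays compared. Cycling cell markers averaged 6.688 to 7.445 with DMSO and 5.552 to 5.937 with ICRF-193 (4 of 5 lower). Progenitor markers averaged 7.818 to 8.552 and 6.747 to 6.804 (4 of 8 lower). Of the 10 pan-neuronal markers 3 were lower and 1 higher, and of the 6 glutamatergic neuron markers 2 were lower and 0 higher. Of the 5 GABAergic neuron markers 1 was higher and 0 were lower. The part of these markers in the result was not tested.

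In cortical neurons, 41 of 92 members changed with ICRF-193, the most of the 6 knockout and inhibitor comparisons, beside 23.4% of all genes. Of these, 27 were lower and 14 higher, beside 13.7% and 9.72%. The median over the members was 5.59e-04, against 0.04 over all genes. The sizes were unequal: the falls reached 6.19-fold, and all 14 rises lay between 0.35 and 0.48 on the log2 scale. Kcnj2, the Kir2.1 inward rectifier, read 4.99, 4.95 and 5.05 with ICRF-193 and 7.75, 7.63 and 7.50 with DMSO. It fell by 2.63 ± 0.15 (adjusted p = 1.4e-11), and its level with ICRF-193 was close to that of TN day 5 neurons with DMSO (5.24 and 5.02). Kcnj10, the Kir4.1 channel typical of glia, read 5.68, 5.91 and 5.70 against 7.39, 7.47 and 7.28, 3.07-fold lower (fell by 1.62 ± 0.17; adjusted p = 2.3e-07). Kcnj4 (Kir2.3) fell by 0.48, and of the 15 Kcnj genes Kcnj6 and Kcnj1 were higher. Kcnj16, which encodes a partner of Kir4.1, was at -0.44 and missed the threshold (adjusted p = 0.0723).

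The Kv and modifier families held most of the other large falls. Kcnq5 read 7.26, 7.28 and 7.37 with ICRF-193 and 9.57, 9.49 and 9.62 with DMSO, 4.76-fold lower (fell by 2.25 ± 0.16; adjusted p = 7.9e-10). Kcnv1 read 6.84, 6.61 and 7.11 against 8.60, 8.86 and 8.82, 3.75-fold lower (adjusted p = 2.1e-07). Kcnc2, a fast delayed rectifier of GABAergic interneurons, read 6.56, 6.33 and 6.36 against 8.18, 8.0 and 8.07, 3.17-fold lower (adjusted p = 3.3e-07). In all 3 genes every ICRF-193 array lay below every DMSO array. Of 7 Kcnh genes, 4 were lower, led by Kcnh5 (fell by 1.24 ± 0.16; adjusted p = 5e-06) and Kcnh1 (fell by 0.92), with Kcnh7 (fell by 0.69) and Kcnh3 (fell by 0.39) behind. In the Kv4 complex, Kcnd2 fell by 0.86 ± 0.13 (8.53, 8.55 and 8.69 against 9.47, 9.45 and 9.41; adjusted p = 5.4e-05), Kcnd3 by 0.33, and 3 of 4 Kcnip genes were lower: Kcnip4 by 0.96, Kcnip2 by 0.82 and Kcnip3 by 0.52.

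Of the calcium- and sodium-activated channels, 2 of 5 Kcnm, 2 of 4 Kcnn and 1 of the 3 Kcnt and Kcnu genes were lower in cortical neurons with ICRF-193, and none was called higher. Kcnma1 read 7.50, 7.49 and 7.53 with ICRF-193 and 9.11, 9.0 and 8.85 with DMSO, 2.79-fold lower (fell by 1.48 ± 0.14; adjusted p = 3.7e-08). Its accessory gene Kcnmb4 fell by 0.73, and the sodium-activated Kcnt2 fell by 1.15 ± 0.14 (adjusted p = 3.4e-06). Kcnn2 (SK2) read 6.46, 6.55 and 6.42 against 7.50, 7.47 and 7.57 and fell by 1.04 ± 0.15 (adjusted p = 2.5e-05). Among the Kcnk leak channels 3 of 14 were higher and 1 lower, and among the Kcne subunits 2 of 5 were higher and none lower. Kcnk2 was the largest rise (9.12, 9.29 and 9.20 against 8.75, 8.66 and 8.76; 0.48 ± 0.10; adjusted p = 0.0014).

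The direction of small changes in cortical neurons depended on scaling. Median centring moved the median of all genes by -0.117 and gave 4 higher and 34 lower members, and only Kcne2, Kcnj6, Kcnk2 and Kcns2 of the 14 rises were called under both quantile normalization and median centring, as were 20 of the 27 falls. Markers of other cell types moved in the same comparison: astrocyte markers averaged 7.329 to 7.597 with DMSO and 6.039 to 6.131 with ICRF-193 (5 of 6 lower), oligodendrocyte lineage markers 7.413 to 7.577 and 5.932 to 5.986 (4 of 6 lower), progenitor markers 8.951 to 9.008 and 7.84 to 7.93 (5 of 8 lower) and cycling markers 7.735 to 7.808 and 5.798 to 5.868 (5 of 5 lower). Microglia markers were at 6.642 to 6.745 with DMSO and 7.401 to 7.549 with ICRF-193 (6 of 6 higher), and pan-neuronal markers at 11.02 to 11.07 and 10.68 to 10.74 (4 of 10 lower, 2 higher). Of the 5 GABAergic neuron markers 1 was higher and 0 were lower (median 0.278), and of the 6 glutamatergic neuron markers 2 were higher and 2 lower (median -0.028). Their part in the falls, that of Kcnj10 included, was not tested.

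**Figure D3:**
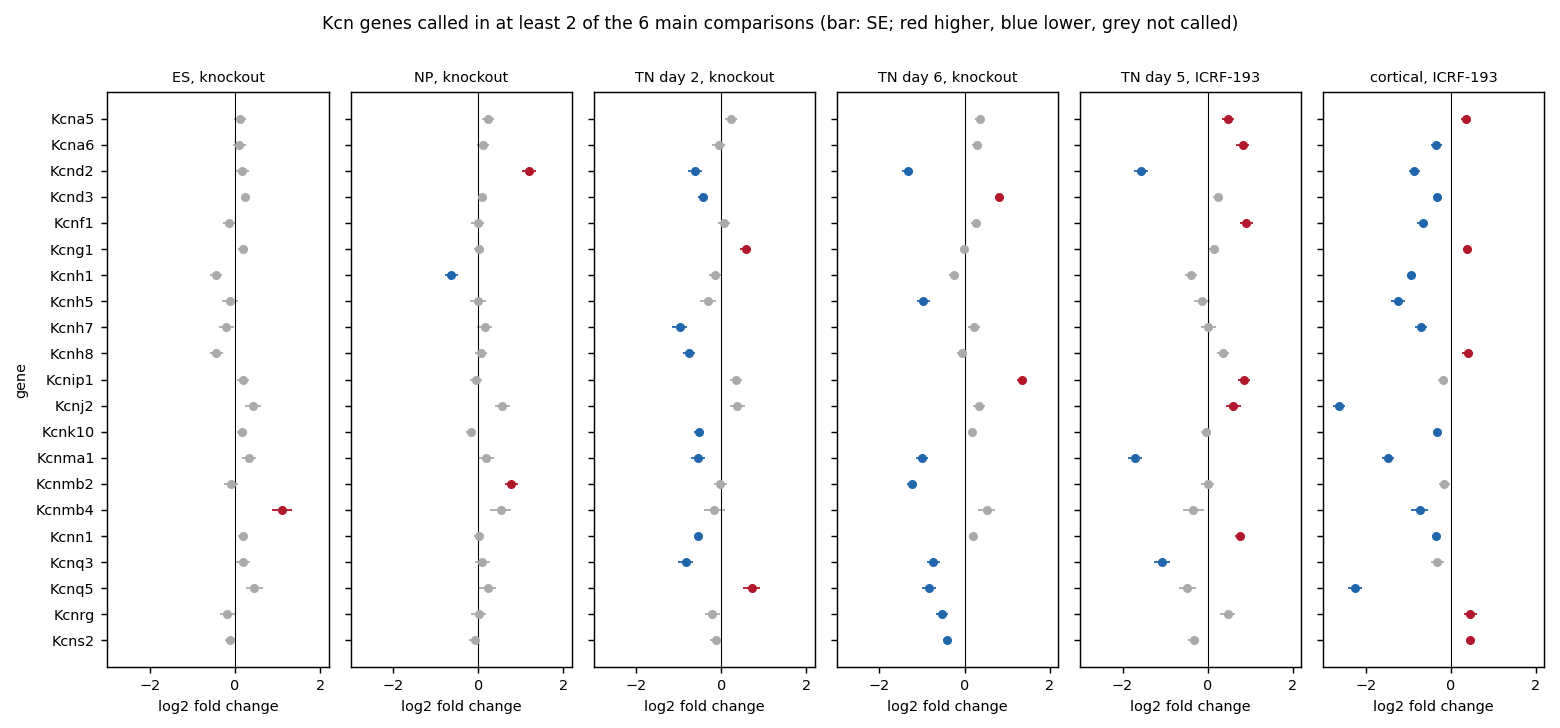
Log2 fold change with its SE for the 21 members called in at least 2 of the 6 main comparisons, one panel per comparison; red marks genes called higher, blue called lower and grey not called. Kcnma1 is blue in 4 panels, Kcnd2 is red in NP and blue in the 4 panels of later cells, and Kcnj2 has the largest fall, in cortical neurons.

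The ICRF-193 effect differed between cortical and TN day 5 neurons for 18 members, beside 4.37% of all genes; 17 of these differences were negative (2.68% of all genes), meaning lower or less raised in cortical neurons, and 1 was positive (1.69%). Kcnj2 rose on TN day 5 and fell in cortical neurons, a difference of -3.24 ± 0.23 (SE; adjusted p = 8.62e-09). Kcnv1 (-2.40 ± 0.31; adjusted p = 2.77e-05), Kcnj10 (-1.98 ± 0.26; adjusted p = 4.19e-05) and Kcnq5 (-1.77 ± 0.26; adjusted p = 1.14e-04) were not called on TN day 5. Kcnf1 (-1.58 ± 0.19; adjusted p = 1.09e-05) and Kcnn1 (-1.11 ± 0.14; adjusted p = 2.77e-05) were called higher on TN day 5 and lower in cortical neurons, as was Kcna6. The members that fell in both experiments did not pass this test: adjusted p was 0.711 for Kcnma1 and 0.0543 for Kcnd2. Kcnj2, Kcnq5, Kcnv1 and Kcnj10 are also members whose DMSO level was higher in cortical neurons than on TN day 5, by 1.88 or more. Those comparisons share the DMSO arrays. On TN day 5 with DMSO, Kcnj2, Kcnv1 and Kcnj10 averaged 5.13, 5.20 and 5.50, below the value of 6 used in the filter on dim genes. Whether these levels limited the measurement of a fall on TN day 5 was not tested. Kcnq5 averaged 6.84 there. All 18 differences were kept under both scalings. In every setting tried 6 were kept, those of Kcna6, Kcnf1, Kcnip2, Kcnn1, Kcnn2 and Kcnq5, and another 6 (Kcnc2, Kcnip1, Kcnj10, Kcnj2, Kcns2 and Kcnv1) in all but the filter on dim genes, where they were not tested.

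**Figure D4:**
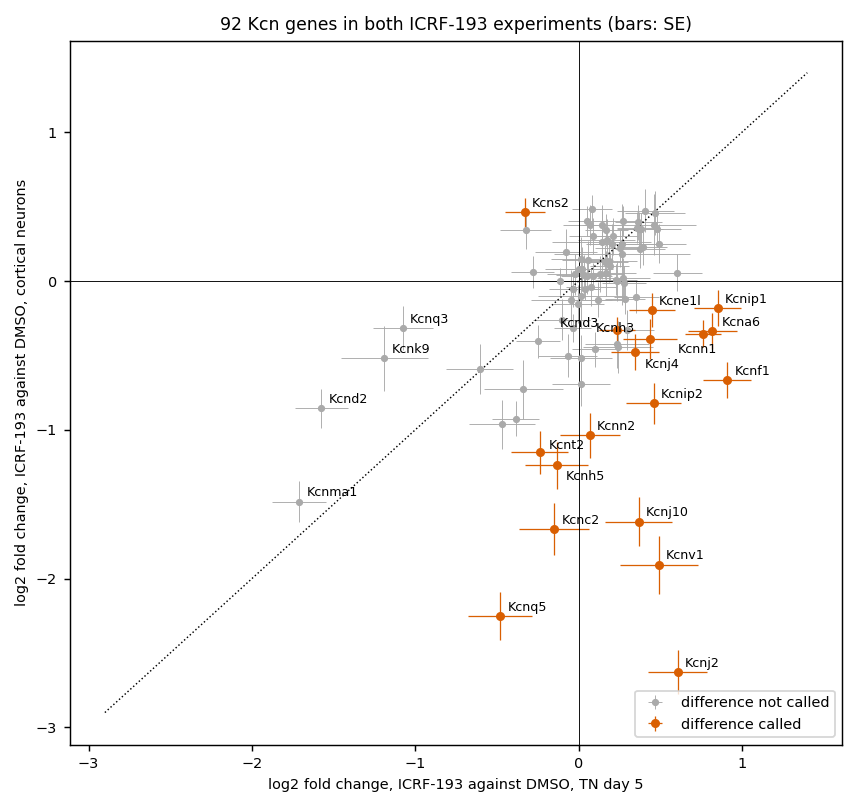
Log2 fold change of ICRF-193 against DMSO for the 92 members, on TN day 5 (x axis) and in cortical neurons (y axis), with SE bars; orange points are members whose 2 effects differed and the dotted line marks equal effects. Kcnma1 and Kcnd2 lie far down on both axes, whereas Kcnj2, Kcnv1, Kcnj10, Kcnc2 and Kcnq5 lie far below the line.

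Over the 6 knockout and inhibitor comparisons, which share no arrays, 52 members were called at least once (56.5%, beside 38.0% of all genes), 31 of them once only (33.7%, beside 26.2%), and 40 never (43.5%, beside 62.0%). Of the 52, 24 were called only lower (26.1% of the members, beside 18.1% of all genes), 16 only higher (17.4%, beside 15.3%) and 12 in both directions (13.0%, beside 4.59%). Kcnd2 was called in 5 comparisons: higher in the NP knockout, then lower on TN day 2 and TN day 6 and with ICRF-193 in both experiments. Kcnma1 was called lower in 4, all but ES and NP, and Kcnq3 lower in 3 (TN day 2, TN day 6 and ICRF-193 on TN day 5). Kcnip1 was higher both in the TN day 6 knockout and with ICRF-193 on TN day 5. Directions were mixed for Kcnd3 (lower, higher, then lower in cortical neurons), Kcnq5 (higher on TN day 2, lower on TN day 6 and in cortical neurons) and Kcnn1 (lower on TN day 2, higher on TN day 5, lower in cortical neurons).

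The 40 members never called in these 6 comparisons came from 14 of the 16 sets of members. They include 9 of the 15 inward rectifiers (Kcnj3, Kcnj5, Kcnj9, Kcnj11 to Kcnj16), 8 of the 14 leak channels (Kcnk3, Kcnk4, Kcnk5, Kcnk12, Kcnk13, Kcnk15, Kcnk16 and Kcnk18) and 5 of the 8 Kv1 genes (Kcna1 to Kcna4 and Kcna10). Several varied strongly over the 12 groups all the same, in which cell type, genotype and treatment differ. The range of group means reached 3.29 among these inward rectifiers (Kcnj3), 4.36 among these leak channels (Kcnk5) and 3.15 among these Kv1 genes (Kcna4). Kcnq1 (Kv7.1), Kcnc1 (Kv3.1), Kcnh4, Kcnt1, Kcnd1, Kcnn3, Kcnn4, Kcnmb1 and Kcnmb3 were also never called, nor were the accessory subunits Kcnab1, Kcnab3, Kcne1l and Kcne4 or the modifiers Kcng2, Kcng4 and Kcns1. The other 2 of the 40 are the antisense transcripts Kcnd3os and Kcnmb4os1. A missed threshold does not show that these genes did not differ.

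The members differ widely in genomic span. Spans were taken from RefSeq (GRCm38.p6) as the distance between the ends of the gene, which was found for all 92 members and 19916 of 19938 genes, and 23 members span at least 100 kb. Kcnma1 spans 712.8 kb, Kcnq5 564.3 kb, Kcnd2 514.5 kb, Kcnt2 368.4 kb, Kcnip1 364 kb, Kcnq3 300.3 kb and Kcnmb2 298.3 kb. In cortical neurons with ICRF-193, 13 of the 23 long members were lower and 3 higher, with a median of -0.40, against 14 lower and 11 higher of the 69 shorter ones, with a median of 0.05. Among all genes, 32.3% of the 2298 long ones and 11.2% of the 17618 shorter ones were lower. The shares higher were 8.96% and 9.83%. In the TN day 6 knockout, 6 of 23 long and 3 of 69 shorter members were lower, against 14.2% and 3.58% among all genes. Both members that were higher, Kcnip1 and Kcnd3 (222.1 kb), are long. Among all genes, 8.01% of the long ones and 5.03% of the shorter ones were higher there. On TN day 2, 7 of 23 long and 3 of 69 shorter members were lower in the knockout (all genes, 16.2% and 4.63%), and on TN day 5 with ICRF-193, 3 of 23 and 1 of 69 (18.8% and 4.75%).

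Several of the largest changes fell on short genes. Kcnj2 spans 10.66 kb, Kcnv1 19.83 kb and Kcnj10 32.88 kb, and these were 3 of the 5 largest falls in cortical neurons. Kcne3, which rose in the NP knockout, spans 8.363 kb. The rank correlation of span and log2 fold change over the 92 members was -0.414 in cortical neurons, -0.407 on TN day 5, -0.233 in the TN day 6 knockout and -0.205 on TN day 2, beside -0.191, -0.187, 0.0355 and -0.0456 over all genes with a span; these describe genes of the same arrays and are not tested.

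**Figure D5:**
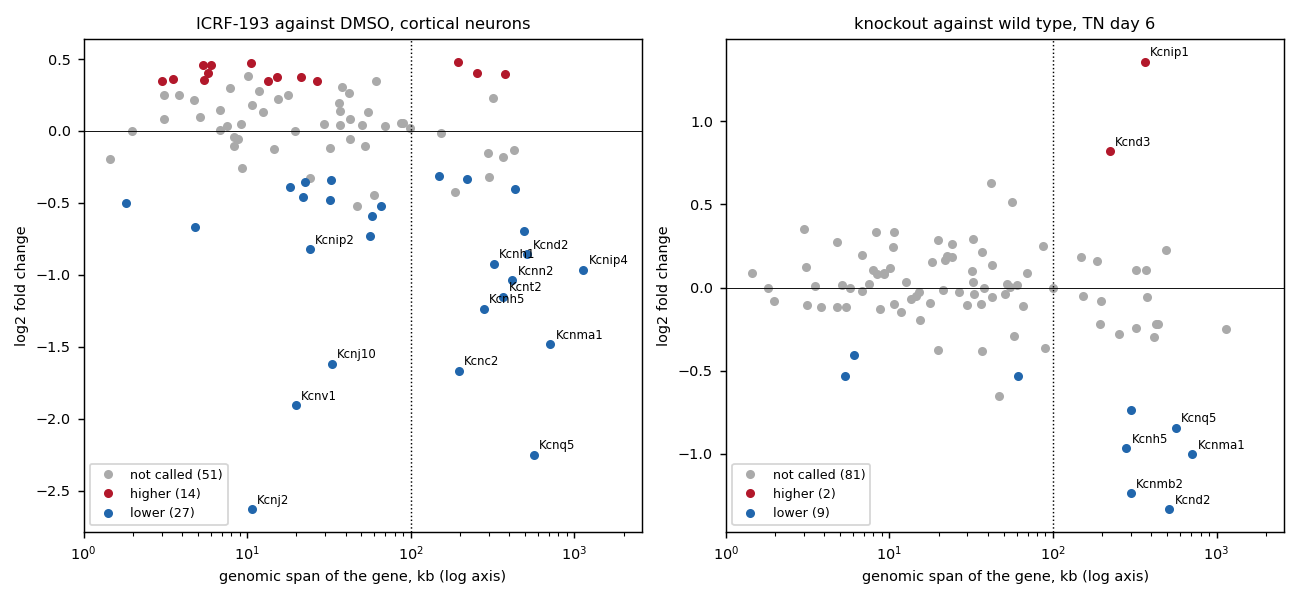
Log2 fold change of the 92 members against genomic span in kb (log axis), for ICRF-193 in cortical neurons and for the TN day 6 knockout; the dotted line marks 100 kb. In cortical neurons 13 of 23 genes to the right of the line were called lower, while Kcnj2, Kcnv1 and Kcnj10 fell at short span.

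Genes whose proteins partner with potassium channels were followed from a list of 25, all measured. The list and its counts also include Rest, which encodes a transcriptional repressor and not a channel partner. With ICRF-193 in cortical neurons 7 were lower and 5 higher, on TN day 5 6 and 2, in the TN day 6 knockout 5 and 1, in the TN day 2 knockout 5 and 3, in the NP knockout 1 and 0 and in ES cells 0 and 0. Of all genes, 13.7% were lower and 9.72% higher in cortical neurons, 6.37% and 2.51% on TN day 5, 4.8% and 5.38% in the TN day 6 knockout, 5.97% and 5.49% in the TN day 2 knockout and 0.246% and 0.381% in NP. Dpp10, an accessory subunit of Kv4, was lower in each comparison of neurons, with a log2 fold change of -1.1 ± 0.18 in the TN day 2 knockout (adjusted p = 2.15e-04) and -2.05 ± 0.14 in the TN day 6 knockout (adjusted p = 2.22e-09). With ICRF-193 it was -2.64 ± 0.18 on TN day 5 (adjusted p = 9.64e-10) and -2.62 ± 0.14 in the cortical cells (adjusted p = 8.77e-12). Dlg2, a scaffold that clusters Kv channels, fell by 1.30, 1.15, 1.02 and 2.38 in the same order, and Ank3, the ankyrin that anchors Kv7 at the axon initial segment, fell by 0.98, 0.66, 1.24 and 1.81. Listed paralogs did not all fall. In the knockout, Dpp6 averaged 6.672 on TN day 2 and 7.926 on TN day 6, against 6.484 and 7.396 in wild type. With ICRF-193, Dpp6 averaged 6.866 on TN day 5 and 8.568 in cortical neurons, against 6.975 and 9.154 with DMSO. Dlg1 averaged 9.647 in the TN day 2 knockout against 8.797 in wild type. Lgi1, a secreted partner of Kv1 complexes, was higher by 0.70 in the TN day 2 knockout, 0.87 on TN day 5 and 1.71 in cortical neurons. Rest, the repressor of neuronal genes, was higher by 0.95 in the TN day 2 knockout and 0.84 in cortical neurons.

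Potassium transport outside the Kcn genes was followed from a list chosen in the same way. Of 19 genes listed (HCN channels, sodium pump subunits, cation-chloride cotransporters and potassium-dependent sodium-calcium exchangers), 14 were measured; 2 were higher and 2 lower in cortical neurons with ICRF-193 and in the TN day 6 knockout, 1 and 1 on TN day 5 and on TN day 2, and 0 in NP and ES cells. The shares called, 4 of 14 in cortical neurons and on TN day 6 and 2 of 14 on TN day 5 and TN day 2, stand beside 23.4%, 10.2%, 8.89% and 11.5% of all genes. Slc24a4, an exchanger, fell by 2.27 ± 0.15 with ICRF-193 on TN day 5 (adjusted p = 1.11e-09) and by 0.64 in the TN day 6 knockout. Slc12a5, the KCC2 cotransporter of mature neurons, was higher by 0.64 in cortical neurons with ICRF-193 and by 0.36 in the TN day 6 knockout. Hcn2 fell by 0.67 and Slc24a3 by 1.13 in cortical neurons.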

How the data were processed

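Deposited values were log2 expression values, 1 per probe set and array, made by the authors; the submitters' processing notes name oligo 1.14.0. Base 2 was read from the range of the values (1.963 to 13.99). For summarization, background correction, normalization and build the method was not given in the sources used here. Of 35556 probe sets, 21789 carried 1 gene symbol, 1621 several symbols and 12146 none in the annotation; the single-symbol ones were used, the brightest per gene (999 genes had more than 1), which gave 19938 genes.

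A model of 12 group means was fitted to 28 arrays with limma 3.58.1 (R 4.3.3; 16 residual and 4.87 prior degrees of freedom). Its moderated statistic, two-sided, was adjusted by Benjamini-Hochberg over all genes, with calls at adjusted p under 0.05; errors are SE unless SD is given. The method was tested on simulated data in which each gene had the same spread in all 12 groups. That test does not cover groups of unequal spread, and the array weights ran from 0.162 in the ES knockout to 2.01 in cortical neurons with ICRF-193. The number of arrays limits the precision: the median SE was 0.144 for 2 against 2 arrays and 0.118 for 3 against 3.

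Named genes were those called without overlap between arrays, at most 15 in each direction in the 6 main comparisons and 8 in the others; of the other lists, at most 3 in each direction. Members, lists and markers were chosen with earlier results of these data known. The alternatives tried were quantile normalization, median centring, only the arrays compared, the ES knockout arrays left out, array weights, a mean of at least 6, the mean of a gene's probe sets, an intensity trend, a replicate block and leaving out single arrays.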

Additional observations from a re-analysis of the deposited data

Results flagged for a closer look

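Differences between effects in different cells or stages, each tested as an interaction contrast (limma, adjusted p under 0.05), are listed here. Between TN day 2 and TN day 6, the knockout effect (log2, TN day 6 minus TN day 2) was more positive on TN day 6 for Kcnd3 (1.25), Kcnh7 (1.2), Kcnip1 (1.02), Kcnab2 (0.739), Kcnn1 (0.736), Kcnh8 (0.703), Kcnk10 (0.702) and Kcnh2 (0.622). It was more negative for Kcnq5 (-1.56), Kcnmb2 (-1.21), Kcnk1 (-0.895) and Kcng1 (-0.58). Of these 12, Kcnd3, Kcnh7, Kcnmb2 and Kcnq5 were called in every setting tried, and Kcnip1 in all but the filter on dim genes, where it was not tested.

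Between NP and TN day 2, the knockout effect (TN day 2 minus NP) was more negative for Kcnd2 (-1.8), Kcne3 (-1.23), Kcnh7 (-1.13) and Kcnh8 (-0.82), and more positive for Kcnk1 (0.808), whose call was lost with a scaling alternative. Of these, only Kcnd2 was called in every setting tried, and Kcne3 in all but the filter on dim genes, where it was not tested. The calls of Kcnh7 and Kcnh8 did not hold in every setting.

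The ICRF-193 effect (cortical neurons minus TN day 5) was more negative for Kcnj2 (-3.24), Kcnv1 (-2.4), Kcnj10 (-1.98), Kcnq5 (-1.77), Kcnf1 (-1.58), Kcnc2 (-1.52), Kcnip2 (-1.28), Kcna6 (-1.16), Kcnn1 (-1.11), Kcnh5 (-1.1), Kcnn2 (-1.1), Kcnip1 (-1.03), Kcnt2 (-0.914), Kcnj4 (-0.82), Kcnh3 (-0.82), Kcne1l (-0.64) and Kcnd3 (-0.57), and more positive for Kcns2 (0.791).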

How the results depend on the processing

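No call of a named member reversed under any alternative run. Dim genes left out (mean under 6, which keeps 52 of 92 members) gave 33 calls in cortical against TN day 5 neurons (52 as reported), 27 for ICRF-193 in cortical neurons (41), 7 on TN day 5 (11), 0 in the ES knockout (1) and 8 for the NP to TN day 2 difference (5). Quantile normalization gave 20 on TN day 5, 17 in the TN day 6 knockout (11), 0 in the ES knockout and 8 for the NP to TN day 2 difference. With only the arrays compared, calls were 3 on TN day 5, 18 in the TN day 6 knockout, 0 in the TN day 2 knockout (14), 0 in the ES knockout and 2 for the NP to TN day 2 difference. Without the ES knockout arrays they were 20, 18 and, for that difference, 12. Array weights gave 24 in the TN day 6 knockout and 0 in the ES knockout, and median centring gave 0 in the ES knockout. Replicate numbers were taken to pair arrays only where at least 3 pairs all correlated above 0.1 in their deviations, which TN day 6 (-0.0189, 0.0134 and 0.0709) and the cortical neurons (-0.0616, -0.0135 and -0.0137) did not meet. Groups of 2 cannot meet it; they gave 0.379 for ICRF-193 on TN day 5, 0.32 and 0.185 for the first wild-type steps, 0.137 on TN day 2, 0.0385 in ES cells and -0.23 in NP. A replicate block gave 2 calls in the NP knockout (4), 0 in the ES knockout, 13 on TN day 2, 14 on TN day 6, 10 and 42 for ICRF-193 on TN day 5 and in cortical neurons, 35, 39 and 27 for the wild-type steps and 44 for cortical against TN day 5. Crossing the NP numbers, chosen after seeing that they deviated in opposite directions, gave 2 calls. Leaving out 1 array at a time gave 0 to 23 calls in the ES knockout (23 without knockout replicate 2), 2 in NP, 1 to 11 on TN day 2, 10 to 12 on TN day 6, 8 to 16 and 29 to 34 for ICRF-193 on TN day 5 and in cortical neurons, 27 to 35, 32 to 34 and 21 to 29 for the wild-type steps, 38 to 50 for cortical against TN day 5, 14 to 18 for the ICRF-193 difference, 2 to 7 for the NP to TN day 2 difference and 6 to 14 for the TN day 2 to TN day 6 difference. The cause of these changes was not tested. With 2 or 3 arrays a group, differences near the median SE could not be told from spread, and no probe set's signal over background was given.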
